A study of Mus musculus with 12 samples.

Results

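Blood cell growth factors and their receptors were read in the liver cells of anemic and control neonatal mice. The 7 genes, matched by symbol among the 32285 genes counted, were Epo, Thpo, Kitl, Bmp4 and Gdf15, which encode secreted or membrane-held signals, and Epor and Kit, which encode receptors. All 12 pups were C57BL/6J without a transgene, randomised to a group within their litters. In 6 pups phlebotomy-induced anemia (PIA) was produced by drawing 20 µL of blood per g body weight from the facial vein on postnatal days 2, 4, 6, 8 and 10, and the hematocrit went from 45 to 60% down to 20 to 24%. The 6 control pups had the needle stick without the loss of blood. Livers were taken 24 h after the last draw, on day 11 per the labels. Each liver was dissociated whole and gave 1 library of droplet-based single-cell RNA-seq, in which each captured mRNA is counted by its unique molecular identifier (UMI). RNA of 1 organ at 1 time was read, so neither protein nor a hormone made elsewhere is seen.

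Erythropoietin, the product of Epo, binds Epor on erythroid progenitors and keeps them alive through JAK2 and STAT5. Stem cell factor (Kitl) acts on Kit-bearing stem cells, early erythroid progenitors and mast cells, and thrombopoietin (Thpo) acts on stem cells and megakaryocytes. The fetal liver forms blood and makes erythropoietin, and around birth these roles pass to bone marrow and kidney, whereas thrombopoietin remains a product of hepatocytes. BMP4 is known from stress erythropoiesis, and GDF15 is a stress-induced factor that maturing erythroblasts also release.

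On GRCm38 (GENCODE M21), Epo (ENSMUSG00000029711) lies on chromosome 5 at 137483020 to 137533242, minus strand, and Epor (ENSMUSG00000006235) on chromosome 9 at 21958897 to 21963506, minus strand. Kitl (ENSMUSG00000019966) lies on chromosome 10 at 100015630 to 100100416, plus strand, and Kit (ENSMUSG00000005672) on chromosome 5 at 75574916 to 75656722, plus strand. Thpo (ENSMUSG00000022847) lies on chromosome 16 at 20724454 to 20734511, minus strand, with Chrd overlapping on the other strand. Bmp4 (ENSMUSG00000021835) lies on chromosome 14 at 46383520 to 46390669, minus strand, and Gdf15 (ENSMUSG00000038508) on chromosome 8 at 70629393 to 70632456, minus strand. Transcript Epo-201 spans 2797 bases, but transcript Epo-202 spans 50223 bases across Pop7, Gnb2 and Mir6418 on the same strand. The counts do not show where in this span a UMI of Epo was read. Within sinusoidal endothelial-like cells, Pop7 stood at 26.1 and 25.9 CPM in control and anemic mice (log2 fold change -0.01 ± 0.10, SE). Gnb2 stood at 345 and 371 CPM (0.11 ± 0.10). Both levels are above that of Epo, so these values cannot show whether reads from this span were counted as Epo.

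The promoters of Epo and Epor are shown because ligand and receptor moved in opposite directions within 1 cell class. The windows are RefSeq sequence on GRCm38.p6, from 250 bases before to 50 bases after the start site, written 5′ to 3′ along the gene. The motif AGATAA or TGATAA, known as a core bound by GATA factors and searched on both strands, is in capitals. The Epo window is chr5:137485767-137486066, minus strand, with its match at position -191 from the start site. The Epor window is chr9:21963527-21963826, minus strand, with its match at position -54.
Epo promoter: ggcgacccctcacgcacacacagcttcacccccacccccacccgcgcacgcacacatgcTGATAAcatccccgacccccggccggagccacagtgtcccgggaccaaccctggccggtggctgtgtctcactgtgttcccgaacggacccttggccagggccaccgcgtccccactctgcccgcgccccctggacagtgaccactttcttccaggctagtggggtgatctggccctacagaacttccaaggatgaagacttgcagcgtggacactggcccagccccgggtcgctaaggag
Epor promoter: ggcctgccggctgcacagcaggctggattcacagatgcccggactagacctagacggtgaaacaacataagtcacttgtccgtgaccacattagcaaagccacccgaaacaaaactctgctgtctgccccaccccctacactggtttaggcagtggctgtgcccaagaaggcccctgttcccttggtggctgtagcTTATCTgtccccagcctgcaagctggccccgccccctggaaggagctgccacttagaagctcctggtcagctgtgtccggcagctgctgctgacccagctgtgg
Of the 10 windows of the 7 genes, 2 held the motif, against 6115 of 32851 windows over all genes (18.6%). A match describes the letters and not a bound factor.

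The 12 libraries gave 206146 cells, 14184 to 21186 per mouse, at total depths of 46252146 to 74545930 UMIs and 1769 to 2889.5 UMIs in the median cell. Cells fell into 61 clusters, and 90.2% of the cells took 1 of 23 names, ending in -like because they rest on marker genes. Levels are given as counts per 1000000 UMIs of a class and mouse (CPM), as mean ± SD over 12 mice unless stated. Stab2 reached 3751 ± 608 CPM in sinusoidal endothelial-like cells (median of the other classes 13.96 CPM), Alb reached 30329 ± 8009.9 CPM in hepatocyte-like cells (median of the other classes 605 CPM), C1qc reached 3506 ± 539 CPM in macrophage-like cells (median of the other classes 27.1 CPM) and Car1 reached 1649.7 ± 544 CPM in early erythroid-like cells (median of the other classes 1.19 CPM). Unnamed cells were 8.62% in control and 5.88% in anemic mice, and 7 clusters in 4 classes are called by a leading gene (Col1a1, Myh11, Prg4 and Cma1). Mouse anemia 2 stood apart, with 27.9% monocyte-like cells against 1.76 to 2.89% in controls, and it gave 55.5% of the Prg4-led cluster. Libraries shared 51 to 121 cell barcodes per pair. By sex-linked transcripts, 4 control and 2 anemic mice were female. Since each library is 1 mouse, the tests judge a difference against the spread between libraries, in which mouse and handling cannot be told apart.

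Transcripts of Epo were sparse and highest in endothelial cells. Sinusoidal endothelial-like cells, which line the liver's capillaries, held 7.00 ± 3.08 CPM, large-vessel endothelial-like cells 5.27 ± 3.38 CPM and stellate-like cells, the vitamin A-storing pericytes, 4.57 ± 4.57 CPM (n = 11; 19 UMIs in 1328 cells). Next came Prg4-led cells with 4.28 ± 3.52 CPM, mesothelial-like cells with 3.81 ± 4.80 CPM and macrophage-like cells with 3.66 ± 1.92 CPM. Hepatocyte-like cells, a fetal source of the hormone, held 31 UMIs in 18288 cells. Among the 6 highest classes no neighbours differed in Epo past the threshold, and sinusoidal exceeded large-vessel cells in 10 of 12 mice (adjusted p = 0.0839, exact two-sided sign-flip test over mice, BH over 35 pairs for all 7 genes).

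A UMI of Epo was found in 813 of 23509 sinusoidal cells (3.46%, median depth 3809 UMIs). It was found in 0.00342% of late erythroid-like cells (median 1253 UMIs) and 0.137% of neutrophil-like cells (median 1430 UMIs). With cells thinned to 1000 UMIs, and shallower cells left out, the shares were 0.672% in sinusoidal and 0.0454% in neutrophil-like cells, and the order was the same. Sinusoidal RNA carried over in the ratio of Epo to Stab2 would have given 19.8 UMIs to macrophage-like cells, where 357 were counted.

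Thpo was highest in hepatocyte-like cells. Hepatocyte-like cells held 12.3 ± 3.53 CPM and mesothelial-like cells, which cover the organ, 2.13 ± 2.10 CPM, a mean difference of 2.43 in log2(CPM + 1) that was positive in 12 of 12 mice (adjusted p = 0.0171, exact sign-flip test). A UMI of Thpo was found in 2.58% of hepatocyte-like cells (median depth 1215 UMIs; 1.27% thinned) and 0.139% of macrophage-like cells (median 4620 UMIs; 0.0353% thinned). By the ratio of Thpo to Alb, carried-over hepatocyte RNA would have given 1.25 UMIs to mesothelial-like cells, where 17 were counted. It would have given 3.42 to Col1a1-led cells, where 24 were counted, and 24.8 to sinusoidal cells, where 56 were. The level in those cells was thus low but above that estimate.

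Kitl was carried by vessel and surface cells. Its level was 394 ± 109 CPM in large-vessel endothelial-like, 272 ± 48.4 CPM in mesothelial-like and 164 ± 45.1 CPM in sinusoidal endothelial-like cells. The first exceeded the second, and the second the third, each in 10 of 12 mice (adjusted p = 0.0228 for both, exact sign-flip test). Myh11-led cells held 134 ± 43.7 CPM, cholangiocyte-like (bile duct) cells 113 ± 46.5 CPM and stellate-like cells 89.3 ± 28.6 CPM, neighbours that did not differ past the threshold. With coarser clustering (resolution 1) stellate-like cells held 162 CPM, and 60.7% of them were called doublets. Called doublets were 69.7% of cholangiocyte-like and 60.5% of Myh11-led cells. Without doublets these classes held 92.3 and 98.1 CPM of Kitl. Macrophage-like cells held 52.5 ± 24.9 CPM, with 5186 UMIs against 403 expected from carried-over sinusoidal RNA. A UMI of Kitl was found in 56.1% of large-vessel cells (median depth 4881.5 UMIs; 24.97% thinned) and in 0.183% of B-like cells (median 1436 UMIs; 0.111% thinned).

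Bmp4 marked connective tissue and large vessels. It reached 70.6 ± 12.9 CPM in Col1a1-led cells, which carry a collagen gene, 69.8 ± 16.1 CPM in large-vessel endothelial-like and 61.1 ± 18.5 CPM in mesothelial-like cells, and these neighbours did not differ past the threshold. Stellate-like cells held 30.5 ± 14.5 CPM (n = 11), Myh11-led cells 15.5 ± 8.04 CPM, hepatocyte-like cells 4.96 ± 1.44 CPM and, far below, sinusoidal endothelial-like cells 1.13 ± 0.815 CPM. With coarser clustering (resolution 1) no class was Col1a1-led, the Myh11-led class was 1 cluster of 4233 cells at 58.8 CPM of Bmp4, and it exceeded stellate-like cells, at 16.5 CPM, in 12 of 12 mice (adjusted p = 0.00427, exact sign-flip test). The order of these 2 classes thus depends on the clustering. A UMI of Bmp4 was found in 29.0% of Col1a1-led cells (median depth 5485.5 UMIs; 7.23% thinned) and in 0.0340% of B-like cells (0.0209% thinned).

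Gdf15 was highest in macrophage-like cells, with 68.5 ± 29.0 CPM. Prg4-led cells held 44.1 ± 28.0 CPM, intermediate erythroid-like cells 26.6 ± 23.3 CPM, Myh11-led cells 21.6 ± 11.4 CPM, cholangiocyte-like cells 18.2 ± 8.29 CPM and hepatocyte-like cells 16.8 ± 7.55 CPM, and no neighbours in the order differed past the threshold. A UMI of Gdf15 was found in 13.3% of macrophage-like cells (median depth 4620 UMIs; 5.16% thinned) and in 0.143% of B-like cells (0.107% thinned). Hepatocyte-like cells held 683 UMIs of Gdf15, where RNA carried over from macrophages in the ratio to C1qa would have given 94.9.

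**Figure D1:**
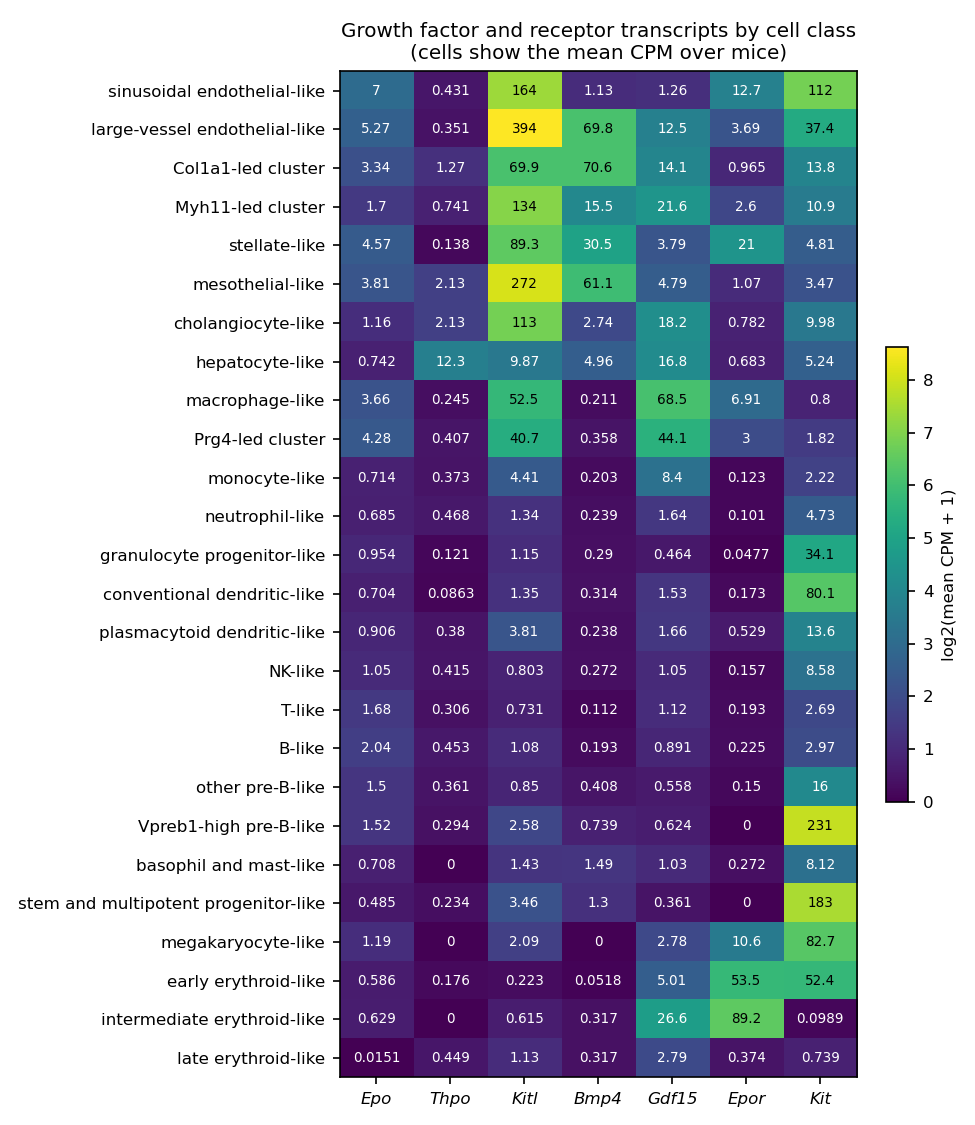
Heat map of the mean level over mice of the 7 genes (columns) in 26 cell classes (rows), colored by log2(mean CPM + 1) with the mean CPM printed in each field. Kitl is highest in large-vessel endothelial-like cells (394 CPM), Thpo in hepatocyte-like cells (12.3 CPM), Gdf15 in macrophage-like cells (68.5 CPM) and Epor in intermediate erythroid-like cells (89.2 CPM).

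Epor, the erythropoietin receptor, was highest in red cell progenitors. It reached 89.2 ± 42.4 CPM in intermediate and 53.5 ± 20.0 CPM in early erythroid-like cells, which did not differ past the threshold (adjusted p = 0.168, exact sign-flip test). Early erythroid-like cells exceeded stellate-like cells, the next class with 21.02 ± 9.80 CPM, in 10 of 11 mice (adjusted p = 0.0228, exact sign-flip test). Sinusoidal endothelial-like cells held 12.7 ± 3.35 CPM, megakaryocyte-like cells 10.6 ± 10.9 CPM (n = 11) and macrophage-like cells 6.91 ± 2.66 CPM. Late erythroid-like cells, rich in globin RNA, held 0.374 ± 0.393 CPM. Stem and multipotent progenitor-like cells held 0 UMIs of Epor in 320 cells, which allows a pooled level of up to 1.71 CPM (3 counts).

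A UMI of Epor was found in 29.7% of early erythroid-like (median depth 6884 UMIs), 17.7% of intermediate (median 2427 UMIs) and 5.97% of sinusoidal cells (median 3809 UMIs), against 0.0257% of neutrophil-like cells (median 1430 UMIs). Thinned to 1000 UMIs, which left out 99, 58, 1965 and 3157 shallower cells of these classes, the shares became 5.60%, 7.35%, 1.23% and 0.0213%. Early cells were thus the higher before thinning and intermediate cells after it, early cells being the deeper. Macrophage-like cells held 648 UMIs of Epor, where 30.2 were expected from carried-over sinusoidal RNA.

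Kit, the stem cell factor receptor, was read in progenitors and in endothelium. Its level was 231 ± 43.4 CPM in Vpreb1-high pre-B-like cells (early B cell precursors), 183 ± 77.4 CPM in stem and multipotent progenitor-like cells and 112 ± 33.7 CPM in sinusoidal endothelial-like cells. Stem and progenitor cells exceeded sinusoidal cells in 11 of 12 mice (adjusted p = 0.0228, exact sign-flip test). The first and second did not differ past the threshold (adjusted p = 0.0854, exact sign-flip test). With coarser clustering (resolution 1) the name Vpreb1-high joined a cluster of 9120 cells at 32.0 CPM of Kit with one of 2055 cells at 226 CPM, and stem and multipotent progenitor-like cells then led with 206 CPM (n = 8), so the leading rank depends on the clustering. Megakaryocyte-like cells held 82.7 ± 36.8 CPM (n = 11), and 51.1 CPM at that coarser clustering (n = 8). Conventional dendritic-like cells, which present antigen, held 80.1 ± 18.2 CPM and exceeded early erythroid-like cells, with 52.4 ± 23.4 CPM, in 10 of 12 mice (adjusted p = 0.0228, exact sign-flip test). The 57 cells of the Cma1-led cluster, Cma1 being a mast cell protease, held 75 UMIs of Kit, too few cells per mouse for a mean. Intermediate erythroid-like cells held 1 UMI of Kit in 582 cells, at the stage where Epor was highest. A UMI of Kit was found in 35.6% of sinusoidal cells (11.0% thinned) and in 0.351% of macrophage-like cells (median depth 4620 UMIs; 0.0862% thinned).

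The 6 differences between neighbours that passed were found with called doublets in place. With them left out, 5 of these 6 pairs were still neighbours and did not pass, although the first class remained the higher on average. The mean differences in log2(CPM + 1) with and without called doublets were 2.43 and 2.604 (6 of 6 mice) for Thpo in hepatocyte-like over mesothelial-like cells, 0.51 and 0.78 (4 of 6 mice) for Kitl in large-vessel over mesothelial-like cells and 0.75 and 0.70 (5 of 6 mice) for Kitl in mesothelial-like over sinusoidal cells. They were 1.41 and 1.03 (8 of 10 mice) for Epor in early erythroid-like over stellate-like cells and 0.66 and 0.61 (9 of 12 mice) for Kit in stem and progenitor over sinusoidal cells. The mice in brackets are those in which the first class was higher without doublets, of those with enough cells, and with 6 mice the exact test cannot go below a raw p of 0.0312. The remaining pair was Kit in conventional dendritic-like over early erythroid-like cells, of which 40.0% were called doublets. Without doublets, early erythroid-like cells left the 6 highest classes, and large-vessel endothelial-like cells, with 34.5 CPM, took their rank. The 1 pair that passed was Kit in conventional dendritic-like over large-vessel endothelial-like cells, in 12 of 12 mice (adjusted p = 0.0171, exact sign-flip test).

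Gfral, the GDF15 receptor of the hindbrain, had 6 UMIs in all cells.

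**Figure D2:**
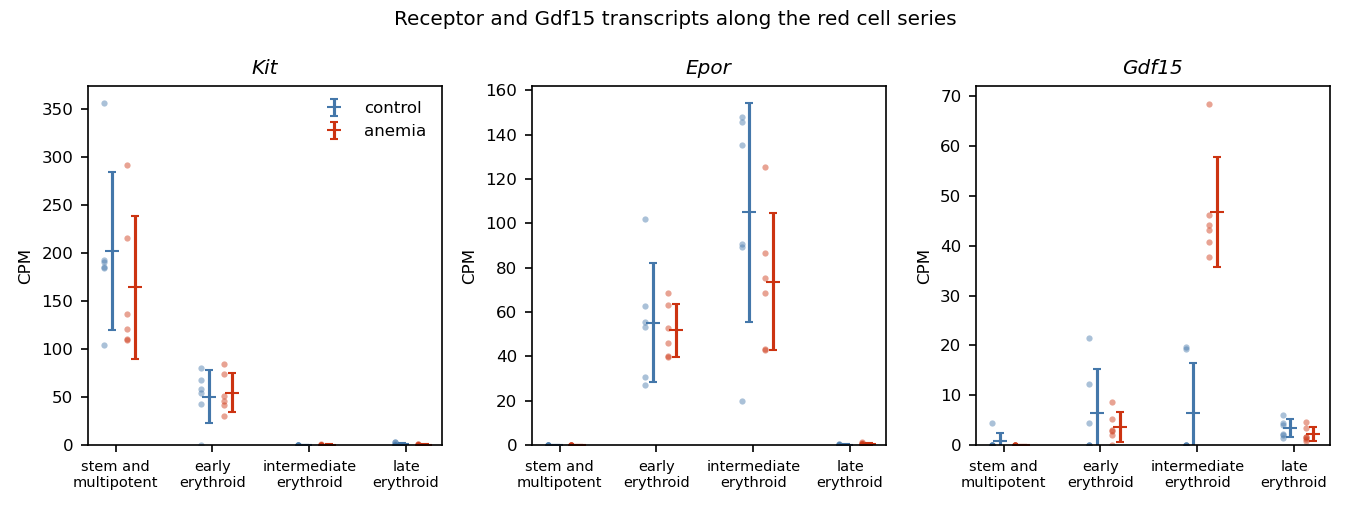
Level in CPM of Kit, Epor and Gdf15 in stem and multipotent progenitor-like and in early, intermediate and late erythroid-like cells, with 1 point per mouse, blue for control and red for anemic mice, and the group mean with its SD. Kit has its highest mean in stem cells. The mean of Epor is highest at the intermediate stage, which did not differ from the early stage past the threshold (adjusted p = 0.168, exact sign-flip test), and is near 0 in late cells (0.374 CPM). Gdf15 at the intermediate stage is higher in all 6 anemic mice than in any control mouse, but the controls rest on 3 UMIs in 2 mice, against 88 UMIs. The gene passed the filter on low counts only through the anemic mice, so this difference was largely fixed by the filter.

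By the share of a gene's UMIs, averaged over the mice of a group, sinusoidal endothelial-like cells held 58.2% of Kit in control and 45.1% in anemic mice, and 37.2% and 45.6% of Epor. Early erythroid-like cells held 3.34% of Epor in control and 13.99% in anemic mice, and intermediate ones 1.38% and 5.51%. Macrophage-like cells, by contrast, held 24.3% and 10.2% of Epor, 15.6% and 5.63% of Kitl, and 69.8% and 45.9% of Gdf15. Hepatocyte-like cells held 60.6% and 66.5% of Thpo. Unnamed cells held 5.45% (Thpo) to 23.5% (Epor) of a gene's UMIs in control and 2.16% (Thpo) to 15.8% (Kit) in anemic mice. These shares were not tested.

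**Figure D3:**
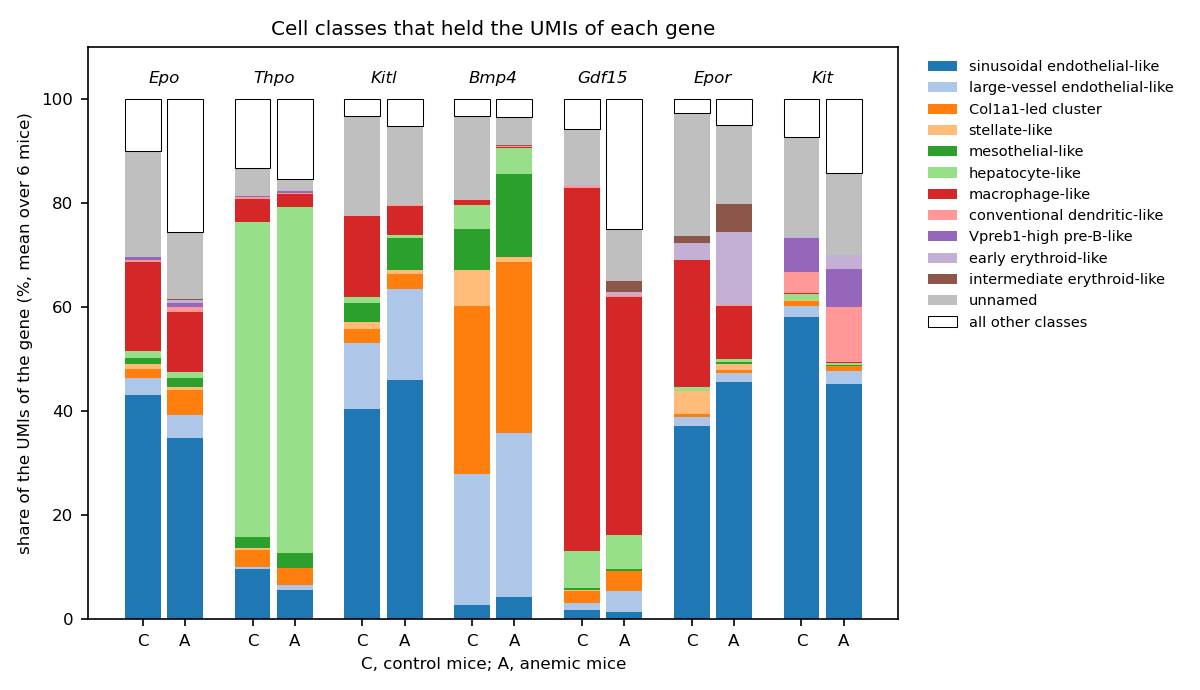
Stacked bars of the share of each gene's UMIs (%, mean over 6 mice) held by each cell class in control (C) and anemic (A) mice, with unnamed cells in gray and all other classes in white. Sinusoidal endothelial-like cells hold 58.2% of Kit in control and 45.1% in anemic mice, and hepatocyte-like cells 60.6% and 66.5% of Thpo.

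Some of the classes that carry Epor or Kit made up a different share of the kept cells in anemic mice, and others did not pass. Early erythroid-like cells, which carry Epor and Kit, were 0.177% of the kept cells in control and 0.546% in anemic mice (adjusted p = 0.0195, exact two-sided Mann-Whitney test, BH over 27 classes). Of these early cells 40.0% were called doublets. Intermediate erythroid-like cells went from 0.130% to 0.426% (adjusted p = 0.0409, exact) and late ones from 6.62% to 20.8% (adjusted p = 0.0334, exact). Megakaryocyte-like cells, which form platelets, went from 0.0790% to 0.133% (adjusted p = 0.0195, exact). Sinusoidal endothelial-like cells fell from 14.4% to 8.87% and macrophage-like cells from 10.9% to 6.70% (adjusted p = 0.0195 for both, exact). The shares of hepatocyte-like (7.95% and 10.1%, adjusted p = 0.560, exact) and large-vessel endothelial-like cells (1.17% and 1.25%, adjusted p = 0.937, exact) did not pass. Stellate-like cells, next after intermediate and early erythroid-like cells in the level of Epor, fell from 1.00% to 0.350% (adjusted p = 0.0409, exact). The classes highest in Kit did not pass, with 1.53% and 1.05% for Vpreb1-high pre-B-like (adjusted p = 0.168, exact) and 0.146% and 0.160% for stem and multipotent progenitor-like cells (adjusted p = 0.755, exact). Shares sum to a whole, so a rise of 1 class lowers others.

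In the whole suspension Epo and Kit were lower in anemic mice, and the other 5 genes did not pass the test. Epo ran from 3.43 to 5.12 CPM (median 4.68) in control and from 1.33 to 2.37 CPM (median 1.77) in anemic mice. The groups did not overlap, and the log2 fold change of anemic over control mice was -1.09 ± 0.15 (SE, n = 6 and 6; adjusted p = 0.00154, edgeR's quasi-likelihood test with Benjamini-Hochberg adjustment over 21187 genes). Kit ran from 41.7 to 56.4 CPM (median 46.5) in control and from 17.4 to 34.4 CPM (median 29.7) in anemic mice, again without overlap (-0.61 ± 0.12, adjusted p = 0.0125, edgeR). These 2 of 7 genes stand beside 6.92% of all genes called. In a sum over all cells, fewer cells of a type and less RNA per cell cannot be told apart.

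The other genes overlapped between the groups. The medians of Epor in control and anemic mice were 5.35 and 5.65 CPM (0.15 ± 0.14, adjusted p = 0.548, edgeR), and those of Kitl 70.2 and 57.4 CPM (-0.09 ± 0.14, adjusted p = 0.748). Thpo had 1.07 and 0.850 CPM (0.04 ± 0.32, adjusted p = 0.947), Bmp4 5.42 and 5.92 CPM (0.22 ± 0.29, adjusted p = 0.671) and Gdf15 17.8 and 12.0 CPM (-0.58 ± 0.24, adjusted p = 0.174). Without the TMM scaling the median log2 fold change over all genes was -0.21 in place of 0.03, with 447 genes higher and 4569 lower in place of 672 and 795, and Epo then stood at -1.32, adjusted p = 0.00149, and Kit at -0.83, adjusted p = 0.00486.

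Within cell classes 57 combinations of gene and class had enough UMIs for the test and 125 did not, in 26 fitted classes. Of the tested combinations 7 were called, 3 higher and 4 lower in anemic mice, beside 4.61% over all genes and classes. That share is over another mix of classes, since 5 of the 57 combinations lay in hepatocyte-like cells, where 52.5% of all genes were called. In sinusoidal endothelial-like cells 3 of 6 tested genes were called, beside 18.6% of all genes.

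In these sinusoidal cells Kit and Epo were lower and Epor was higher in anemic mice. Kit ran from 127 to 160.4 CPM (median 141) in control and from 67.2 to 94.6 CPM (median 81.4) in anemic mice, without overlap (-0.68 ± 0.09, adjusted p = 0.000219, edgeR). Epo ran from 7.66 to 11.1 CPM (median 10.1) in control and from 3.03 to 6.30 CPM (median 3.76) in anemic mice, also without overlap (-1.07 ± 0.18, adjusted p = 0.00102, edgeR; 675 and 237 UMIs). The receptor moved the other way. Epor ran from 8.02 to 11.6 CPM (median 10.2) in control and from 13.7 to 17.9 CPM (median 15.8) in anemic mice, again without overlap (0.78 ± 0.12, adjusted p = 0.000739, edgeR; 671 and 867 UMIs). A UMI of Epor was found in 4.45% of sinusoidal cells in control and 8.26% in anemic mice (1.01% and 1.58% thinned), and one of Kit in 38.8% and 30.9% (13.01% and 7.92% thinned). Kitl, whose product can reach Kit on the same cells, ran from 111 to 160.1 CPM (median 150.1) in control and from 131 to 263 CPM (median 154) in anemic mice. It overlapped and did not pass (0.47 ± 0.17, adjusted p = 0.0765, edgeR), but did under 2 alternative analyses, among them without anemia 5 (0.55, adjusted p = 0.0396). Bmp4 was not called (0.92 ± 0.49, adjusted p = 0.207).

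The sinusoidal class joined clusters of unlike proportions. Cluster 2 held 5310 control and 5775 anemic cells, and cluster 8 held 6029 and 1574. In cluster 2 alone, an analysis added after the data had been seen, the log2 fold changes were -0.68, adjusted p = 0.000220 for Kit, 0.81, adjusted p = 0.00314 for Epor, -1.20, adjusted p = 0.000529 for Epo and 0.37, adjusted p = 0.146 for Kitl. In cluster 8 alone they were -0.55, adjusted p = 0.0154 for Kit, 0.99, adjusted p = 0.000734 for Epor, -1.36, adjusted p = 0.0182 for Epo and -0.18, adjusted p = 0.338 for Kitl. The directions of Kit, Epor and Epo were thus the same in clusters 2 and 8, and that of Kitl was not. Clusters 30, 33 and 48 of this class were not fitted alone. Sums over the marker lists of other classes moved in the same cells. From control to anemic mice the 6 large-vessel endothelial markers went from a sum of 544 CPM (503 to 640.3) to 823 CPM (756 to 926), the 6 reticulocyte markers from 631 CPM (437 to 899) to 1358 CPM (1059.9 to 1784) and the 6 early erythroid markers from 1055 CPM (943 to 1206) to 641 CPM (562 to 745), none of them at 0. Clec14a of the large-vessel list is also among the 10 leading genes of the largest sinusoidal cluster at resolution 1. A sum over such a list therefore need not be RNA of another class. The part of these sums in the result was not tested.

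**Figure D4:**
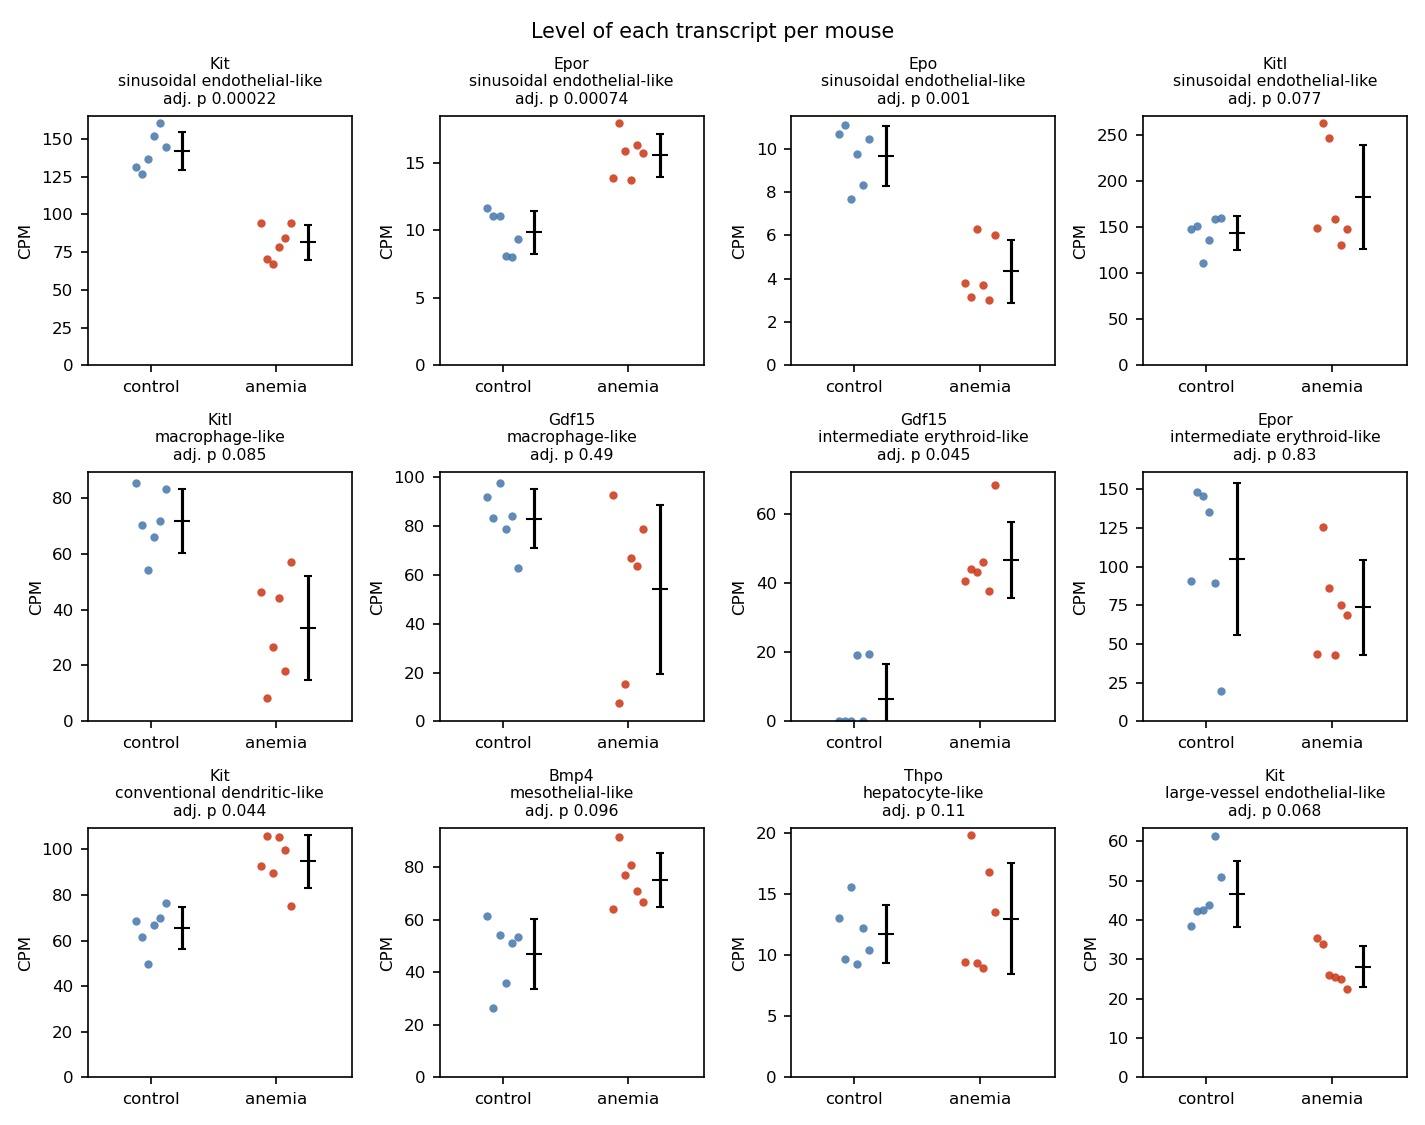
Level in CPM per mouse (points; blue for control, red for anemic) for 12 pairs of gene and cell class, with the group mean and SD beside the points, each axis from 0, and the adjusted p of edgeR above each panel. In sinusoidal endothelial-like cells all 6 anemic mice lie below all controls for Kit and Epo and above all controls for Epor.

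In hepatocyte-like cells Kit and Kitl were lower in anemic mice, 2 of 5 tested genes in a class where 52.5% of all genes were called. Kit ran from 3.53 to 13.01 CPM (median 8.00) in control and from 1.74 to 3.20 CPM (median 2.24) in anemic mice, without overlap (-1.62 ± 0.27, adjusted p = 0.000128, edgeR; 167 and 43 UMIs). Kitl ran from 8.68 to 18.9 CPM (median 13.3) in control and from 2.56 to 8.71 CPM (median 6.76) in anemic mice, where the highest anemic mouse lay just above the lowest control (-0.83 ± 0.28, adjusted p = 0.0184, edgeR). The call of Kitl was lost without control 4 (-0.69, adjusted p = 0.0550), without anemia 5 (-0.66, adjusted p = 0.0506) and with called doublets left out (-0.04, adjusted p = 0.956). RNA of other classes moved in parallel in these cells. The 8 sinusoidal markers went from a sum of 527 CPM (442 to 690.2) to 169 CPM (83.1 to 289), and the 8 stellate markers from 436 CPM (384 to 601) to 85.4 CPM (23.4 to 132), none of them at 0. Sinusoidal RNA carried over in the ratio to Stab2 would have given 175 UMIs of Kit, where 210 were counted, and 200.1 of Kitl, where 405 were counted. At resolution 1 this class joined clusters of unlike proportions. Cluster 18 there held 2395 control and 1329 anemic cells, with 10.2 CPM of Kit, 18.6 of Kitl and 28.2 of Gdf15. Cluster 12 held 1667 and 4549 cells, with 1.29, 2.70 and 5.28 CPM. Cluster 9 held 3529 and 4573 cells, with 2.12, 3.42 and 9.78 CPM. The part of this mix in the changes of these genes was not tested.

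Thpo, the hepatocytes' own hormone, ran from 9.31 to 15.6 CPM (median 11.3) in control and from 8.94 to 19.8 CPM (median 11.5) in anemic mice, and the groups overlapped (0.41 ± 0.21, adjusted p = 0.110, edgeR). Gdf15 ran from 11.9 to 30.2 CPM (median 23.3) in control and from 7.90 to 18.3 CPM (median 10.6) in anemic mice. It did not pass (-0.57 ± 0.25, adjusted p = 0.0680, edgeR) but did under 5 alternative analyses, among them without control 4 (-0.68, adjusted p = 0.0216), without anemia 5 (-0.78, adjusted p = 0.0171) and without TMM scaling (-0.91, adjusted p = 0.00351). Bmp4 had medians of 4.87 and 5.39 CPM (0.40 ± 0.25, adjusted p = 0.191). Without TMM scaling the median over all genes of this class was -0.40 in place of -0.06, with 1567 genes higher and 5582 lower in place of 3085 and 3347, so that the directions here are relative to that scaling.

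Among erythroid cells Gdf15 was higher in anemic mice at the intermediate stage, 1 of 2 genes tested in a class where 2.04% of all genes were called. In control mice 1, 2, 3 and 5 no UMI of Gdf15 was counted, control 4 had 19.3 CPM and control 6 had 19.6 CPM, and the anemic mice had 40.7, 44.3, 43.2, 46.3, 37.7 and 68.5 CPM. All 6 anemic mice lay above all controls (2.29 ± 0.65, adjusted p = 0.0455, edgeR). The control values rest on 3 UMIs in 2 of 6 mice, against 88 UMIs in anemic mice, a ratio of pooled levels of 4.62 with an exact 95% interval of 1.53 to 22.8 for counting error only. The gene passed the filter on low counts only through the anemic mice (0.500 UMIs a mouse in control and 14.7 in anemic mice), so a difference was largely fixed by the filter. Without the filter it stood at 2.51, adjusted p = 0.0268. The call held without anemia 5, was lost without any other single mouse (adjusted p = 0.0532 to 0.107, log2 fold change 2.07 to 3.20, the highest without control 6), and could not be tested without anemia 4, which gave 39 of the UMIs. It was also lost without TMM (2.13, adjusted p = 0.0725), with called doublets left out (2.05, adjusted p = 0.115), with the Y-linked covariate (2.29, adjusted p = 0.0675) and at no more than 10% mitochondrial UMIs (2.27, adjusted p = 0.0536), and DESeq2 gave no adjusted p. The 6 reticulocyte markers went from a sum of 34503 CPM (29346 to 41316) to 48315 CPM (43638 to 52797) in these cells, and the 7 hepatocyte markers from 2499 CPM (1898 to 3499.7) to 804 CPM (268 to 1314), and their part in the result was not tested.

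Epor in intermediate erythroid-like cells ran from 19.6 to 148 CPM (median 113) in control and from 42.7 to 125 CPM (median 72.0) in anemic mice, overlapping throughout (-0.32 ± 0.40, adjusted p = 0.833, edgeR). In early erythroid-like cells, where 0.103% of all genes were called, neither Epor (-0.04 ± 0.26, adjusted p = 1.00) nor Kit (0.04 ± 0.33, adjusted p = 1.00) passed. Kit did not pass in stem and multipotent progenitor-like (-0.29 ± 0.27, adjusted p = 0.999; 0.0205% of all genes called), megakaryocyte-like (-0.08 ± 0.35, adjusted p = 0.998; n = 5 and 6; 0%) or Vpreb1-high pre-B-like cells (-0.26 ± 0.12, adjusted p = 0.652; 0.502%) either. In early erythroid-like cells, of which 40.0% were called doublets, the change of Epor on log2(CPM + 1) was 0.01 with all cells and 1.24 without doublets. That of Kit was 0.78 and 0.50. No change of Epor or Kit passed in a progenitor class, which at these depths does not show that there was none.

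In conventional dendritic-like cells Kit ran from 49.8 to 76.5 CPM (median 67.7) in control and from 74.97 to 106 CPM (median 96.1) in anemic mice. Of the 6 anemic mice, 5 lay above all controls (0.47 ± 0.11, adjusted p = 0.0443, edgeR), and Kit was the 1 gene tested beside 1.17% of all genes called. The call was lost without any 1 mouse except anemia 6 (adjusted p = 0.0520 to 0.104), at the coarser clustering (0.42, adjusted p = 0.0850) and with the joint voom model (0.45, adjusted p = 0.180). With 1 mouse left out the log2 fold change was 0.41 to 0.52. In these cells the 7 megakaryocyte markers went from a sum of 17.4 CPM (16.0 to 19.5) to 124 CPM (27.4 to 331), and the 6 monocyte markers from 412 CPM (372 to 457) to 699.9 CPM (408 to 1026), and their part in the result was not tested.

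Large-vessel endothelial-like cells, with 0.673% of all genes called, gave no call in 6 tested genes. Kit ran from 38.5 to 61.4 CPM (median 43.3) in control and from 22.6 to 35.5 CPM (median 25.9) in anemic mice, without overlap (-0.66 ± 0.15, adjusted p = 0.0680, edgeR). It passed under 5 alternative analyses, among them without anemia 1 (-0.75, adjusted p = 0.0428), without anemia 2 (-0.73, adjusted p = 0.0468) and with DESeq2 (-0.66, adjusted p = 0.0248). Epo had medians of 8.66 and 2.74 CPM (-1.14 ± 0.39, adjusted p = 0.230), and Kitl of 402 and 335 CPM (0.01 ± 0.19, adjusted p = 1.00). Bmp4 (0.09 ± 0.17, adjusted p = 0.925) and Epor (-0.16 ± 0.33, adjusted p = 0.927) did not pass. Gdf15 (0.63 ± 0.49, adjusted p = 0.706) did not pass either, but did with called doublets left out (2.46, adjusted p = 0.0412) and with a joint voom model (1.37, adjusted p = 0.0451), and ran from 0.41 to 1.36 on the log2 scale with 1 mouse left out.

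Macrophage-like cells gave no call in 5 tested genes, beside 1.61% of all genes. Kitl ran from 54.2 to 85.2 CPM (median 71.0) in control and from 8.26 to 56.8 CPM (median 35.4) in anemic mice (-1.002 ± 0.28, adjusted p = 0.0855, edgeR). It passed under 4 alternative analyses, among them without anemia 2 (-0.86, adjusted p = 0.0433) and with DESeq2 (-1.04, adjusted p = 0.0244). Epo ran from 3.66 to 7.43 CPM (median 4.77) in control and from 0.890 to 4.51 CPM (median 2.17) in anemic mice (-0.99 ± 0.31, adjusted p = 0.117, edgeR) and passed under 2 alternative analyses, among them without anemia 4 (-1.32, adjusted p = 0.0380). The groups overlapped for both. Gdf15, the leading transcript of this class among the 7, ran from 62.6 to 97.5 CPM (median 83.6) in control and from 7.67 to 92.6 CPM (median 65.2) in anemic mice (-0.53 ± 0.37, adjusted p = 0.494), and Epor from 5.47 to 11.2 CPM (median 8.47) in control and from 1.77 to 7.05 CPM (median 5.28) in anemic mice (-0.56 ± 0.20, adjusted p = 0.181).

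Bmp4 moved in different directions in the surface and pericyte classes without passing. In mesothelial-like cells, with 0.595% of all genes called, it ran from 26.3 to 61.4 CPM (median 52.2) in control and from 64.2 to 91.5 CPM (median 74.0) in anemic mice, without overlap (0.71 ± 0.18, adjusted p = 0.0959, edgeR), and 70.9% of these cells were called doublets. In stellate-like cells, with 2.56% called and anemia 3 dropped for having fewer than 10 cells, it ran from 30.0 to 60.0 CPM (median 35.8) in control and from 11.5 to 31.1 CPM (median 16.4) in anemic mice (-0.84 ± 0.31, adjusted p = 0.196, edgeR; n = 6 and 5). In Col1a1-led cells, with 0.439% called, Bmp4 (-0.14 ± 0.14, adjusted p = 0.811), Kitl (-0.36 ± 0.14, adjusted p = 0.369) and Kit (-1.08 ± 0.29, adjusted p = 0.149) did not pass. Kit did pass under 2 alternative analyses, among them without control 3 (-1.26, adjusted p = 0.0402). On log2(CPM + 1) the change of Kit in this class was -0.96 with all cells and 0.23 without called doublets, which were 48.1% of its cells. Its direction thus depends on the doublets. Kit in NK-like cells, lymphocytes that kill infected cells, did not pass either (1.30 ± 0.34, adjusted p = 0.128, edgeR; 0.216% of all genes called).

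**Figure D5:**
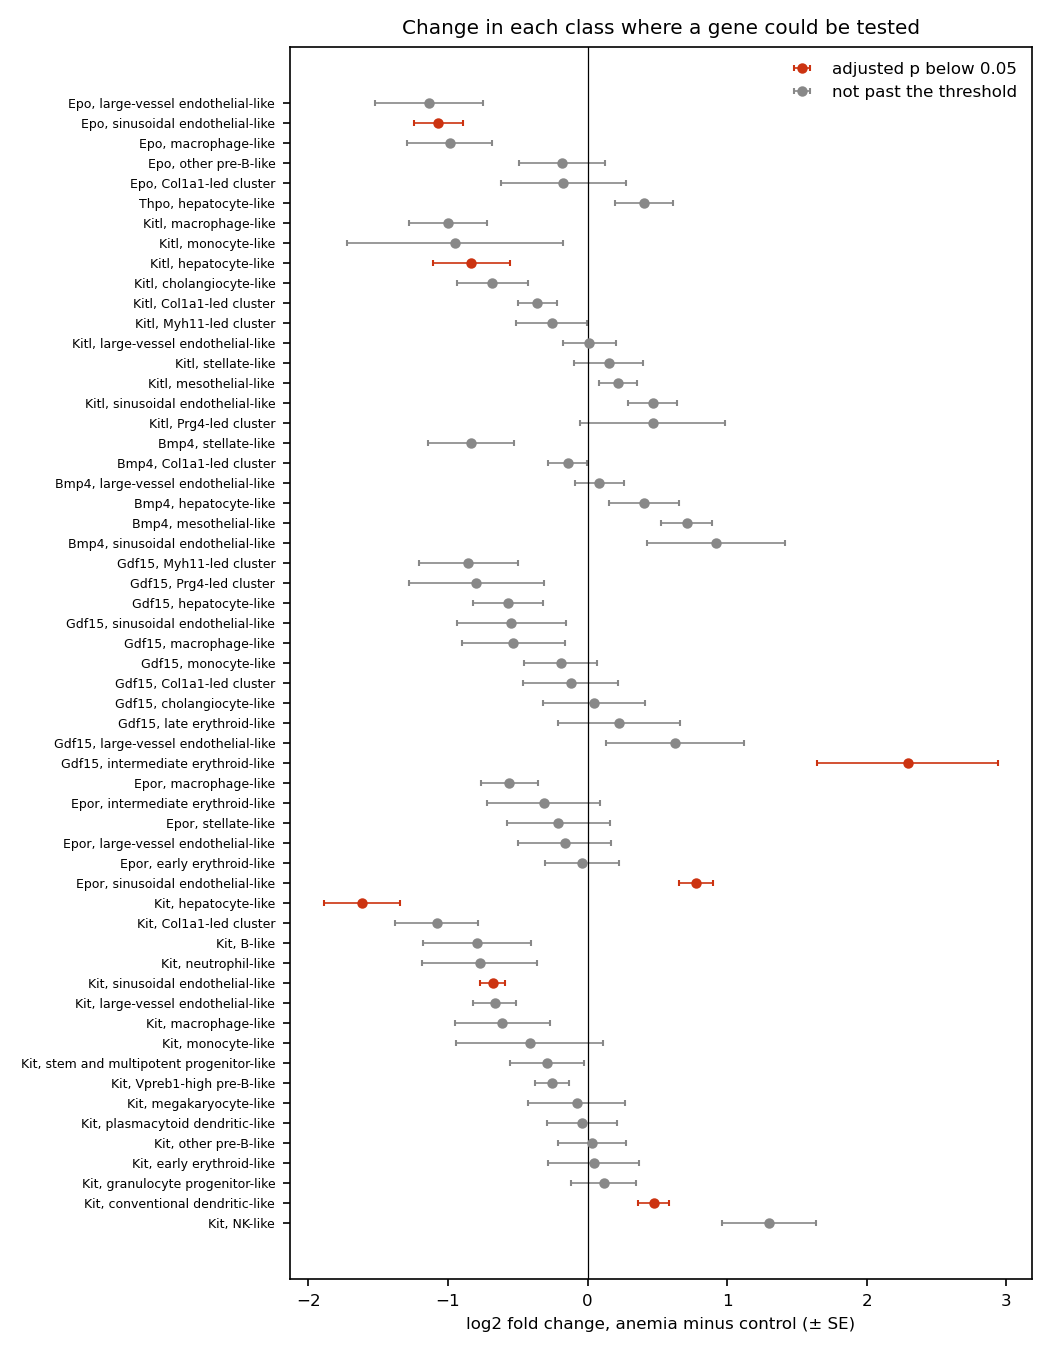
Log2 fold change of anemic over control mice (points, with SE bars) for the 57 tested combinations of gene and cell class, red where the adjusted p was below 0.05. The 7 red points are Epo, Epor and Kit in sinusoidal endothelial-like cells, Kit and Kitl in hepatocyte-like cells, Gdf15 in intermediate erythroid-like cells and Kit in conventional dendritic-like cells.

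Where a gene was called in 1 class, its change was set against that in the other classes within the same mice, on log2(CPM + 1), and 39 of 74 pairs of classes passed (exact two-sided permutation of the group labels, BH over the pairs; the smallest raw p possible is 0.00216). Each pair starts from a class chosen because the gene was called there in these same mice, so a difference is conditioned on that call and the count is no independent evidence of it. With called doublets left out, 14 of 71 pairs passed, and of 36 pairs that had passed and still had a value 35 kept their sign. The rise of Epor in sinusoidal endothelial-like cells exceeded its change in large-vessel endothelial-like (difference 0.68, adjusted p = 0.0139, exact) and macrophage-like cells (1.31, adjusted p = 0.0139, exact). Against early (0.60, adjusted p = 0.128, exact) and intermediate erythroid-like cells (0.98, adjusted p = 0.0981, exact) it did not pass. Without called doublets these differences were -0.58 (adjusted p = 0.766, exact) and 1.15 (adjusted p = 0.129, exact), so the sign against early cells turned. The fall of Kit in sinusoidal cells exceeded that in Vpreb1-high pre-B-like cells (-0.57, adjusted p = 0.0214, exact), and against stem and multipotent progenitor-like (-0.49, adjusted p = 0.210, exact) and large-vessel cells (-0.09, adjusted p = 0.604, exact) no difference passed. Kit in conventional dendritic-like cells differed from Kit in sinusoidal cells (1.33, adjusted p = 0.00942, exact). Of the 4 differences that passed here, those of Epor against macrophage-like (1.42, adjusted p = 0.0154, exact) and of Kit between dendritic and sinusoidal cells (1.38, adjusted p = 0.0154, exact) also passed without called doublets, and those of Epor against large-vessel (0.64, adjusted p = 0.489, exact) and of Kit against Vpreb1-high pre-B-like cells (-0.62, adjusted p = 0.0512, exact) did not.

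Of the 93 other genes of these pathways, 81 were tested in sinusoidal endothelial-like cells and 15 rose and 3 fell (22.2%, beside 18.6% of all genes). Of the EPO receptor signalling and target genes 4 of 12 rose and 1 fell (median log2 fold change 0.19, beside 0.00 over all genes). Socs3 (74.4 to 227 CPM; 1.61 ± 0.14, adjusted p = 4.63e-06) and Socs2 (34.0 to 114 CPM; 1.73 ± 0.19, adjusted p = 3.75e-05) encode inhibitors of cytokine signalling, and Jak2 (161 to 319.7 CPM; 0.99 ± 0.11, adjusted p = 6.66e-05) the kinase bound to Epor. Of the KIT list 2 of 12 rose and 0 fell, among them Cblb (317 to 567 CPM; 0.84 ± 0.12, adjusted p = 0.000363), a ubiquitin ligase. Of the BMP list 4 of 23 rose and 1 fell, with Bmpr2 (434 to 676 CPM; 0.64 ± 0.09, adjusted p = 0.000415), a receptor subunit, higher and Bmpr1a (5.24 to 3.17 CPM; -0.72 ± 0.19, adjusted p = 0.0161), another subunit, lower.

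In hepatocyte-like cells 5 of 76 tested pathway genes rose and 37 fell (55.3%, beside 52.5% of all genes). The part of the cluster mix of this class in these changes was not tested. Of the BMP list 0 of 24 rose and 18 fell (median log2 fold change -0.83, beside -0.06 over all genes), among them the receptor Acvr2a (35.0 to 15.4 CPM; -1.14 ± 0.14, adjusted p = 6.65e-06) and the ligand Bmp5 (16.1 to 2.77 CPM; -2.32 ± 0.29, adjusted p = 7.40e-06). Bmp5 is also among the 10 leading genes of the stellate-like cluster, and the 8 stellate markers went in the same hepatocyte-like cells from a sum of 436 CPM (384 to 601) to 85.4 CPM (23.4 to 132), whose part in the fall of the list was not tested. Of the list for oxygen control of Epo 3 of 7 rose, the oxygen-sensing prolyl hydroxylases Egln1 (27.4 to 45.6 CPM; 0.73 ± 0.10, adjusted p = 2.17e-05), Egln2 (36.9 to 52.3 CPM; 0.53 ± 0.12, adjusted p = 0.00205) and Egln3 (26.9 to 43.7 CPM; 0.69 ± 0.12, adjusted p = 0.000139), and 3 fell, among them Hif1a (65.1 to 45.7 CPM; -0.51 ± 0.10, adjusted p = 0.000473), the oxygen-labile subunit of the hypoxia-inducible factor.

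Intermediate erythroid-like cells had 2 of 19 tested pathway genes called, both higher, beside 2.04% of all genes. These were Pim1 (413 to 987 CPM; 1.17 ± 0.18, adjusted p = 2.30e-05), a STAT5 target kinase, and Erfe (11.0 to 63.7 CPM; 2.74 ± 0.75, adjusted p = 0.0349), the erythroblast hormone that lowers hepcidin. Erfe had 2 UMIs in control and 82 in anemic mice, where the class held 292403 and 1857974 UMIs in all. The control SD was 21.5 CPM, and 4 of 6 anemic mice lay above all controls. Erfe too passed the filter on low counts only through the anemic mice, so a difference was largely fixed by the filter. Without the filter it stood at 2.95, adjusted p = 0.0156 (edgeR). In late erythroid-like cells the stress-response factors Ddit3 (1.18 to 5.92 CPM; 2.00 ± 0.41, adjusted p = 0.00465) and Atf4 (12.6 to 25.02 CPM; 0.94 ± 0.21, adjusted p = 0.00844) rose, 2 of 40 tested beside 6.09% of all genes. By its control level Ddit3 also passed the filter on low counts only through the anemic mice, so its difference was largely fixed by the filter. In macrophage-like cells Egln3 (1.83 to 18.3 CPM; 3.23 ± 0.39, adjusted p = 0.000748) and Egln1 (34.8 to 57.2 CPM; 0.69 ± 0.14, adjusted p = 0.0217) rose, 2 of 73 tested beside 1.61% of all genes. In large-vessel endothelial-like cells Bmp6 (67.3 to 128 CPM; 0.93 ± 0.17, adjusted p = 0.0152), a BMP ligand that regulates hepcidin, and Jak2 (134 to 216 CPM; 0.69 ± 0.13, adjusted p = 0.0180) rose, 2 of 70 tested beside 0.673% of all genes. No pathway gene was called in early erythroid-like (of 35) or megakaryocyte-like cells (of 29).

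Across the mean levels of 26 classes, Pearson's r of log2(CPM + 1) described which genes had the pattern most like each of the 7, without a test, the classes sharing libraries and depth. For Kitl these were Zfp532 (r = 0.98), Pald1 (r = 0.97) and Zcchc14 (r = 0.96). For Bmp4 they were Fbn1 (r = 0.96), Fbln5 (r = 0.96) and Pcsk6 (r = 0.95), and for Thpo they included Slc38a4 (r = 0.93) and Fah (r = 0.92). The values were lower for Epor, with Gm42917 (r = 0.86), Zglp1 (r = 0.86) and Gfap (r = 0.83), for Gdf15, with Ank2 (r = 0.83), Cpeb3 (r = 0.81) and Lpl (r = 0.81), and for Kit, with Cdca7l (r = 0.79), Drc7 (r = 0.79) and Lmnb2 (r = 0.76). Epo stayed under 10 CPM in every class and was left out.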

How the data were processed

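Livers of 6 control and 6 anemic pups were processed with Cell Ranger against mm10, and the authors deposited for each mouse a matrix of UMI counts per gene and barcode, not normalized (matrix header: Cell Ranger 7.0.0). The labels name another chemistry version of the 10x 3′ kit than the methods do, and whether intronic reads were counted is not given in the sources used here. The labels give an age of 11 days at sampling, and a figure legend of the study gives another day. The 7 genes, the pathway lists and the marker lists were chosen with earlier results of these data known.

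Of 207537 barcodes, the 206146 with between 500 and 50000 UMIs, no more than 50% of them mitochondrial, went on. Cells of all mice were clustered together (2000 variable genes without the 7 genes and the pathway genes, 20 principal components, 20 neighbours, Leiden resolution 2; leidenalg 0.10.2, scikit-learn 1.9.0, Python 3.11.15), without batch correction. A cluster took the name of the marker list with the highest mean score, if at least 3 of its markers were raised and its leading genes did not favor another list. Clusters that scored highest for early erythroid cells but had more late erythroid markers among their top 10 genes are called intermediate erythroid-like. These naming rules, and the subdivision of 4 clusters, were set after the clusters had been seen, so names may differ from those of the study. Clusters with more than 80% called doublets stayed unnamed. Other called doublets were kept, and were left out as an alternative (11.3 to 16.9% called per library, at an assumed rate of 0.8% per 1000 barcodes).

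UMIs were summed per mouse and class with at least 10 cells. Classes with at least 4 mice per group were fitted with edgeR 4.0.16 (TMM, quasi-likelihood test; R 4.3.3) on genes that averaged 5 or more UMIs a mouse, without mitochondrial and ribosomal protein genes, and with Benjamini-Hochberg (BH) adjustment over all genes of a class at 0.05. Fold changes and the CPM given for pathway genes use the TMM scaling, and other CPM do not. Order of classes, differences between classes and shares of cells were tested by exact tests over mice. For shares of cells with a UMI, cells were also thinned to 1000 UMIs, leaving out the 14934 of 89618 control and 16981 of 101721 anemia cells in classes that were shallower. Carry-over of free RNA was reckoned within each mouse from the ratio of a gene to the first marker of its main source class. Libraries of 46252146 to 74545930 UMIs set the precision, and intervals and the floor of 3 counts cover counting error only. The alternatives were DESeq2 1.42.0, a joint limma 3.58.1 voom model, no TMM, other filters, a replicate block, Y-linked expression as a covariate, resolution 1, at most 10% mitochondrial UMIs, doublets left out, single clusters and each mouse left out. Named were the 7 genes in every class, at most 4 called genes per pathway list and class by adjusted p, Gfral, the 3 genes most like each of the 7 by Pearson correlation over classes, and the leading markers of classes. Some genes that this rule names are not reported here. The statistics were tested on simulated counts.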

Additional observations from a re-analysis of the deposited data

Results flagged for a closer look

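In 9 of 128 groups of 5 or 6 mice, 1 mouse lay far from the others, where chance gives about 1 in 20. For Kit, control 6 held 356 CPM in stem and multipotent progenitor-like cells (nearest mouse 192 CPM), control 3 held 158 CPM in megakaryocyte-like cells (nearest 72.9 CPM) and anemia 5 held 168 CPM in Vpreb1-high pre-B-like cells (nearest 210.0 CPM). For Kitl, anemia 6 held 681 CPM in large-vessel endothelial-like cells (nearest 373 CPM), and in monocyte-like cells control 3 held 18.8 CPM (nearest 5.02 CPM) and anemia 6 held 13.5 CPM (nearest 2.05 CPM). For Gdf15, anemia 6 held 68.5 CPM in intermediate erythroid-like cells (nearest 46.3 CPM) and control 3 held 29.8 CPM in large-vessel endothelial-like cells (nearest 11.2 CPM). For Bmp4, control 1 held 105 CPM in large-vessel endothelial-like cells (nearest 71.0 CPM).

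The change with anemia differed between classes in 39 of 74 pairs (difference of the 2 changes on log2(CPM + 1), exact permutation test over mice, BH over the pairs), each pair starting from a class in which the gene was called in these mice. With called doublets left out 14 passed. For Kit in conventional dendritic-like cells the difference was 0.98 against B-like cells (adjusted p = 0.0214), 1.48 against Col1a1-led cells (adjusted p = 0.00942), 1.92 against hepatocyte-like cells (adjusted p = 0.00942), 1.24 against large-vessel endothelial-like cells (adjusted p = 0.00942), 0.92 against macrophage-like cells (adjusted p = 0.00942), 0.58 against plasmacytoid dendritic-like cells (adjusted p = 0.0493), 1.33 against sinusoidal endothelial-like cells (adjusted p = 0.00942), 0.84 against stem and multipotent progenitor-like cells (adjusted p = 0.0388) and 0.76 against Vpreb1-high pre-B-like cells (adjusted p = 0.0139), by the exact permutation test. For Kit in hepatocyte-like cells the difference was -2.18 against early erythroid-like cells (adjusted p = 0.0185), -1.57 against granulocyte progenitor-like cells (adjusted p = 0.0214), -0.68 against large-vessel endothelial-like cells (adjusted p = 0.0493), -0.999 against macrophage-like cells (adjusted p = 0.0493), -2.46 against NK-like cells (adjusted p = 0.00942), -1.42 against other pre-B-like cells (adjusted p = 0.0258), -1.33 against plasmacytoid dendritic-like cells (adjusted p = 0.00942) and -1.16 against Vpreb1-high pre-B-like cells (adjusted p = 0.0214), by the exact permutation test. For Kitl in hepatocyte-like cells the difference was -1.01 against large-vessel endothelial-like cells (adjusted p = 0.0412), -1.26 against mesothelial-like cells (adjusted p = 0.00942), -1.70 against Prg4-led cells (adjusted p = 0.0139), -1.42 against sinusoidal endothelial-like cells (adjusted p = 0.00942) and -1.12 against stellate-like cells (adjusted p = 0.0489), by the exact permutation test. For Gdf15 in intermediate erythroid-like cells the difference was 4.71 against cholangiocyte-like cells (adjusted p = 0.0139), 3.96 against Col1a1-led cells (adjusted p = 0.0139), 4.94 against hepatocyte-like cells (adjusted p = 0.00942), 3.30 against large-vessel endothelial-like cells (adjusted p = 0.00942), 4.57 against late erythroid-like cells (adjusted p = 0.00942), 5.13 against macrophage-like cells (adjusted p = 0.00942), 4.27 against monocyte-like cells (adjusted p = 0.00942), 4.89 against Myh11-led cells (adjusted p = 0.00942), 4.68 against Prg4-led cells (adjusted p = 0.0185) and 4.56 against sinusoidal endothelial-like cells (adjusted p = 0.00942), by the exact permutation test. For Epo in sinusoidal endothelial-like cells the difference was -1.12 against Col1a1-led cells (adjusted p = 0.0350) and -0.91 against other pre-B-like cells (adjusted p = 0.0412), by the exact permutation test. For Epor in sinusoidal endothelial-like cells the difference was 0.68 against large-vessel endothelial-like cells (adjusted p = 0.0139) and 1.31 against macrophage-like cells (adjusted p = 0.0139), by the exact permutation test. For Kit in sinusoidal endothelial-like cells the difference was -0.98 against granulocyte progenitor-like cells (adjusted p = 0.0185), -1.87 against NK-like cells (adjusted p = 0.00942) and -0.57 against Vpreb1-high pre-B-like cells (adjusted p = 0.0214), by the exact permutation test. With called doublets left out, Kitl in hepatocyte-like cells differed by 0.09 (adjusted p = 0.891, exact) from large-vessel, -0.64 (adjusted p = 0.476, exact) from sinusoidal and -0.15 (adjusted p = 0.845, exact) from stellate-like cells, these 3 not past the threshold, and by 1.06 (adjusted p = 0.0355, exact) from macrophage-like cells, where all cells gave 0.19 (adjusted p = 0.497, exact). The mesothelial-like and Prg4-led pairs could not be tested without doublets. Of the listed Kit pairs of hepatocyte-like cells, only that with NK-like cells then passed (-1.95, adjusted p = 0.0154, exact). Early erythroid-like cells, for example, gave -1.38 (adjusted p = 0.495, exact). Of the Kit pairs of conventional dendritic-like cells, those with B-like, Col1a1-led (0.37, adjusted p = 0.707, exact), plasmacytoid dendritic-like and stem and multipotent progenitor-like cells did not pass. Neither did the Epo pairs or the Epor pair with large-vessel cells. The Gdf15 pairs with cholangiocyte-like (1.72, adjusted p = 0.489, exact), Col1a1-led (3.49, adjusted p = 0.0768, exact), large-vessel (3.15, adjusted p = 0.130, exact) and Myh11-led cells (3.66, adjusted p = 0.101, exact) did not pass. That with Prg4-led cells could not be tested, and the others passed. Of the listed Kit pairs of sinusoidal cells, only that with NK-like cells passed (-1.87, adjusted p = 0.0154, exact). The Gdf15 differences rest on 4 control mice without a UMI, so their size depends on the pseudocount of 1 CPM, and the gene passed the filter on low counts only through the anemic mice (3 UMIs in control and 88 in anemic mice), which largely fixed these differences.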

How the results depend on the processing

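Across the whole suspension, Epo and Kit were called under every alternative run, although the number of all genes called moved from 1467 to 2686 with DESeq2, 5016 without TMM, 866 with the Y-linked covariate, 896 with doublets left out and 708 to 1541 with a mouse left out. Within classes, Kit, Epo and Epor in sinusoidal endothelial-like cells kept their calls under all 24 alternatives and Kit in hepatocyte-like cells under the 20 that gave a value. The count of called combinations was 7, against 11 with DESeq2 and 13 with the joint voom model, and 5 to 7 with a mouse left out. The count of called pathway genes was 83, against 159 with the joint voom model and 68 to 87 with a mouse left out. With called doublets left out, 1 pair of neighbouring classes in place of 6 passed, in 6 to 12 mice with enough cells for the 5 pairs that no longer did, and 14 differences between classes in place of 39, where 32 to 42 passed with a mouse left out. Shares of cells were counted here in 15 classes. These held more than a set part of a gene's UMIs or were added by name (erythroid, megakaryocyte, stem and stellate-like). The shares passed in 8 of these classes, and in 5 to 8 with a mouse left out (5 without control 1, 3, 4 or 5 or anemia 4, 5 or 6). The causes were not tested. Pathway genes that reversed were Asgr1 in hepatocyte-like cells without TMM (-0.027), Gab2 there with doublets left out (0.18) and Spred1 in cluster 8 alone (-0.018).

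The labels tie no replicate number to a litter or batch, and the numbers were not taken to pair the mice: 3 of 6 same-numbered pairs deviated together with a correlation over 0.1 (range -0.19 to 0.51, over 21187 genes), and 1 mouse of 6 correlated best with its own number. With the replicate block 2 of the 7 genes were called in the whole suspension, 7 combinations within classes and 90 pathway genes, Gdf15 in intermediate erythroid-like cells was not called (2.41, adjusted p = 0.0510) and Bmp4 in sinusoidal cells was (0.999, adjusted p = 0.0414). Depth limits the sparse genes, since 125 combinations had too few UMIs for a test.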

Other observations

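Bmp4 in mesothelial-like cells passed without the filter on low counts (0.75, adjusted p = 0.0239) and with the joint voom model (0.80, adjusted p = 0.0444). Kit in NK-like cells passed with DESeq2 (1.28, adjusted p = 0.0401), without the filter (1.32, adjusted p = 0.0332) and with the joint voom model (1.07, adjusted p = 0.0428).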
